A study of Mus musculus with 6 samples.

Results

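The transcripts described here are those of p53 (Trp53 in the mouse) and 31 genes known as its damage-response targets or partners. They were taken by symbol from the deposited expression table, which held all 32 among 36842 genes. The symbols were sorted by known role into p53 itself, 5 feedback regulators, 7 arrest genes, 9 death genes, 5 repair genes and 5 genes of metabolism that belong to none of these. Values are FPKM, fragments scaled to transcript length and library size, from 6 mouse RNA-seq libraries. The 3 Sal_CP libraries came from cells given 2 mM cyclophosphamide, an alkylating anticancer drug, together with 100 µM salidroside, a phenylethanoid glycoside of Rhodiola, over 24 h. The 3 CP libraries came from cells given the same dose of cyclophosphamide alone for the same time. The labels give every library as wild-type GC-2spd(ts), a spermatocyte line immortalised from mouse germ cells, and name testis as tissue. Cells without cyclophosphamide are not analysed here, so the comparison asks what salidroside added to cyclophosphamide, not what cyclophosphamide did to p53.

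p53 is a transcription factor that is held at a low level by the ubiquitin ligase Mdm2 and accumulates when DNA is damaged, mostly through control of the protein rather than of its mRNA. It then binds elements made of a pair of decamer half-sites and raises genes that stop the cell cycle, start apoptosis, repair DNA or tune metabolism, and it raises Mdm2, which closes the loop. In the testis p53 is best known from spermatocytes and from the loss of damaged germ cells. GC-2spd(ts) was made with the SV40 large T antigen and a temperature-sensitive mutant p53, which limits it as a model of this pathway.

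Depth could be read from the file. For genes listed with 1 transcript, low FPKM multiplied by transcript length piled up at a fixed step in each library, taken here as the worth of 1 fragment, and 38.3 to 41.9% of such low values lay within 2% of 1 or 2 steps. The step corresponds to 22.0, 16.5 and 16.5 M fragments in Sal_CP replicates 1 to 3, and to 16.9, 17.6 and 18.3 M fragments in CP. Sal_CP replicate 1 was thus 1.28 times as deep as the mean of the other 5 libraries. The RNA did not have the profile of its label. Of 17 spermatocyte markers 8 averaged at least 1 FPKM, and the summed level of that list was 72.3 to 105 FPKM in Sal_CP and 45.9 to 64.5 FPKM in CP, against 52097 to 86930 FPKM in Sal_CP and 36393 to 61134 FPKM in CP for 18 spermatid markers, led by Smcp. All 18 spermatid markers averaged at least 1 FPKM, but their means ran from 4.54 (Catsper1) to 23088 FPKM (Smcp). Markers of the epididymal epithelium, led by Crisp1, summed to 2399 to 3553 FPKM in Sal_CP and 5778 to 6618 FPKM in CP. Of the 15 on that list only 7 averaged at least 1 FPKM, and Lcn5 and Lcn8 averaged 0.14 and 0.60 FPKM. Each of these sums thus rests on a few abundant genes. In bulk RNA, fewer cells of a type and less RNA per cell cannot be told apart. Whether replicates were separate cultures is not stated, so each p-value refers to the spread among these 6 libraries alone, and that spread may be technical.

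p53 and most of its targets had a lower mean in Sal_CP than in CP, but none of the members tested passed the test. Of the 32, 28 had the lower mean FPKM in Sal_CP and 4 the higher (Ak1, Btg2, Plk2 and Gadd45b). limma was run on log2(FPKM + 1) over the 12241 genes that averaged 1 FPKM or more, as 26 members did. limma called 0 of the 26 at a Benjamini-Hochberg adjusted p below 0.05, in either direction, where it called 0.0735% of all genes lower and 0% higher. At an unadjusted p below 0.05 it found 4 members lower (Ckap2, Plk3, Fas and Trp53) and 0 higher, where 6.77% of all genes were lower and 3.96% higher. The log2 change was below 0 in 24 of 26 members, compared with 60.5% of all genes, and above 0 in 2, compared with 39.5%. The count of 24 moved with the processing. It was 20 after median of ratios rescaling, 22 after quantile normalization, 21 without Sal_CP replicate 2 or without Sal_CP replicate 3, and 25 without Sal_CP replicate 1. The members' median of -0.35 lay beside -0.12 for all genes tested. After median of ratios rescaling the median of all genes moved to 0.013 and that of the members to -0.20, so the members lay 0.21 below all genes there and 0.22 below them in the values as deposited. With a minimum mean of 5 FPKM, which 10 members reached, the medians lay closer, at -0.16 for the members and -0.047 for all genes. The members' median was -0.66 without Sal_CP replicate 1, -0.21 without Sal_CP replicate 2 and -0.18 without Sal_CP replicate 3, beside -0.30, -0.049 and -0.039 for all genes. The count at an unadjusted p below 0.05 was 20 without Sal_CP replicate 1, where 31.5% of all genes were lower. It was 0 without Sal_CP replicate 2 (3.37% of all genes) and 1 without Sal_CP replicate 3 (3.6%). It was 2 without CP replicate 1 (3.76%), 1 without CP replicate 2 (4.75%) and 3 without CP replicate 3 (4.81%). The adjusted count was 0 in each of these.

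**Figure D1:**
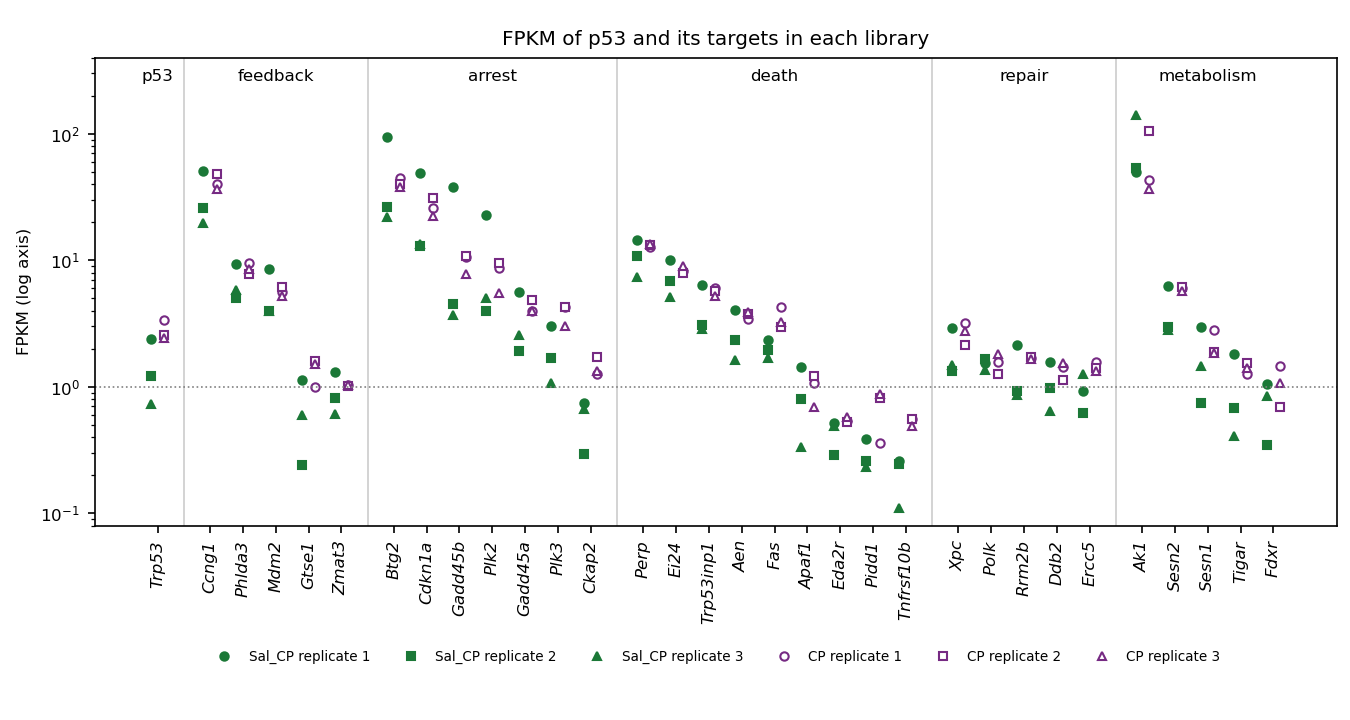
FPKM (log axis) of the 32 genes in each library, by role; filled green symbols are the 3 Sal_CP libraries, open purple symbols the 3 CP libraries, and the dotted line marks 1 FPKM. Sal_CP replicate 1 (filled circles) lies near or above CP for most genes, while Sal_CP replicates 2 and 3 lie below CP for 28 of the 32.

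The libraries of a group did not behave alike. For 24 of the 26 members tested, no CP library was as low as Sal_CP replicates 2 or 3, as was so for 46.7% of all genes, and the exceptions were Polk and Ak1. Sal_CP replicate 1 was the highest of the 6 libraries for 16 of the 26, compared with 33.6% of all genes. All 16 also had Sal_CP replicates 2 and 3 beneath every CP library, a pattern that 19.9% of all genes showed. The coefficient of variation of the members had a median of 49.8% in Sal_CP and 15.0% in CP, against 34.2% in Sal_CP and 20.5% in CP for all genes tested. Groups did not overlap, with Sal_CP lower, for 4 of the 26 (Trp53, Ckap2, Fas and Ercc5), compared with 10% of all genes, and also for Eda2r and Tnfrsf10b, which were under the filter, making 6 of all 32, compared with 6.93% of the 32375 genes above 0 in a library. They did not overlap in the higher direction for 0 members, compared with 7.21% of all genes.

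The promoters of several members hold a sequence close to the p53 consensus. RefSeq windows from 250 bases before to 50 after the transcription start (GRCm38.p6) were found for 25 of the 32. The best run of 20 bases in each was scored by how many positions fit the p53 consensus, a palindromic pair of decamers without a spacer that reads the same on both strands. At least 17 of 20 positions fitted in 10 of the 25 members and in 7.2% of 27025 genes, and at least 18 in 4 members and in 0.94% of genes. The runs of those 4 members and of p53 itself are shown because they set the members' promoters side by side; capitals mark the bases that fit the consensus.
Cdkn1a: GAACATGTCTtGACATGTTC
Ccng1: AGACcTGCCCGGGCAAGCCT
Gtse1: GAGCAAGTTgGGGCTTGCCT
Ckap2: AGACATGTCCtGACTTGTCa
Trp53: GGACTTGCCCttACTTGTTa
They lie at chr17:29090928-29090947 (plus strand), chr11:40755462-40755481 (minus), chr15:85859945-85859964 (plus), chr8:22186003-22186022 (minus) and chr11:69580284-69580303 (plus), in the order of the lines. A match describes letters and is not evidence of binding.

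Trp53 encodes p53. Its FPKM was 2.40, 1.22 and 0.725 in Sal_CP replicates 1 to 3, against 3.40, 2.56 and 2.43 in CP. All Sal_CP libraries lay below all CP libraries, Sal_CP replicate 1 only narrowly. The mean was 1.45 ± 0.86 in Sal_CP and 2.80 ± 0.53 in CP (FPKM, n = 3 each, SD), and limma gave a log2 change of -0.68 (SE 0.28), an unadjusted p of 0.031 and an adjusted p of 0.444. The two-sided exact permutation p was 0.1, the smallest that 3 against 3 libraries can give. On a log2(FPKM + 0.1) scale the change was -1.04, since a pseudocount of 1 shrinks the change of a gene at this level. Trp53 (ENSMUSG00000059552) is protein-coding and spans 69580359 to 69591873 on chromosome 11 (GRCm38, GENCODE M21). Its promoter window, chr11:69580109-69580408 on the plus strand, is printed because it carries a κB motif beside the p53-like run, and the series asks about NF-κB. The first run of capitals marks the p53-like run and the second the κB motif, whose first base lies 5 bases before the start.
Trp53: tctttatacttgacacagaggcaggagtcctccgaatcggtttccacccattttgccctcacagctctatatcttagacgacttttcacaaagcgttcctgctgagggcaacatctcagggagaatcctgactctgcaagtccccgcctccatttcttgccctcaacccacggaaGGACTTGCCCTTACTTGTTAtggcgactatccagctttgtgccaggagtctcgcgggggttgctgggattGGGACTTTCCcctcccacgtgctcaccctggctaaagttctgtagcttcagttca
On either strand, this κB motif was found in the windows of 1 of 25 members and of 0.174% of all genes.

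Feedback regulators had means in Sal_CP that were close to those in CP or below them, with Sal_CP replicate 1 above every CP library for Mdm2, Ccng1 and Zmat3. Mdm2, the ligase that degrades p53, had 8.49, 3.99 and 3.96 FPKM in Sal_CP and 5.62, 6.19 and 5.18 FPKM in CP. Sal_CP replicate 1 was the highest of the 6 libraries and the other Sal_CP libraries the lowest, so the means hardly differed (5.48 ± 2.60 in Sal_CP and 5.67 ± 0.51 in CP). The log2 change of Mdm2 was -0.11 (SE 0.30, limma adjusted p 0.854), and it turned to 0.051 after median of ratios rescaling. Ccng1, a cyclin that recruits a phosphatase to Mdm2, was the most abundant of this group, at 50.8, 25.7 and 19.7 FPKM in Sal_CP and 39.7, 47.9 and 36.5 FPKM in CP (log2 change -0.46, SE 0.37, limma adjusted p 0.563). It showed the pattern of Mdm2, with Sal_CP replicate 1 highest and replicates 2 and 3 lowest. Phlda3, which holds back the survival kinase Akt, had 9.37, 5.07 and 5.78 FPKM in Sal_CP and 9.44, 7.80 and 8.51 FPKM in CP. Gtse1, a mitotic protein that shuttles p53 out of the nucleus, had 1.12, 0.239 and 0.596 FPKM in Sal_CP and 1.01, 1.61 and 1.52 FPKM in CP. Its groups overlapped through Sal_CP replicate 1 and CP replicate 1, and the log2 change was -0.55 (SE 0.25, limma unadjusted p 0.052, adjusted p 0.464). Zmat3, an RNA-binding protein that acts on p53 mRNA, was under the filter with 1.32, 0.811 and 0.614 FPKM in Sal_CP and 1.04, 1.01 and 1.03 FPKM in CP. Of the 4 feedback genes tested 0 were called, all 4 had a log2 change below 0, and their median was -0.40.

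Arrest genes varied widely between the Sal_CP libraries. Cdkn1a, the p21 inhibitor of cyclin-dependent kinases and the classical p53 target, had 49.1, 13.0 and 13.5 FPKM in Sal_CP and 26.0, 31.1 and 22.6 FPKM in CP. Sal_CP replicate 1 lay above the CP libraries and replicates 2 and 3 below them, and the mean of 25.2 ± 20.7 FPKM in Sal_CP was within the spread of the 26.5 ± 4.3 FPKM in CP (log2 change -0.34, SE 0.45, limma adjusted p 0.696). An opposite-strand transcript, AC167363.2 (mean 2.46 FPKM), overlaps Cdkn1a, and reads of the pair cannot be told apart unless strand was used. Btg2, an antiproliferative regulator of mRNA decay, followed the same pattern at 95.0, 26.3 and 22.1 FPKM in Sal_CP and 44.7, 39.9 and 38.0 FPKM in CP. So did Gadd45b, a stress sensor that is also an NF-κB target, at 37.8, 4.48 and 3.73 FPKM in Sal_CP and 10.6, 10.9 and 7.78 FPKM in CP. Its paralog Gadd45a had 5.65, 1.91 and 2.57 FPKM in Sal_CP and 3.98, 4.82 and 3.94 FPKM in CP. The polo-like kinase Plk2 reached 22.7 FPKM in Sal_CP replicate 1, against 3.95 and 5.03 FPKM in the other Sal_CP libraries and 8.64, 9.49 and 5.51 FPKM in CP. These 5 genes, and no other arrest gene, had Sal_CP replicate 1 above and Sal_CP replicates 2 and 3 below every CP library. The log2 changes of Btg2 and Gadd45b were both -0.089, with SEs of 0.48 and 0.63, and that of Plk2 was 0.035 (SE 0.50). After median of ratios rescaling those of Btg2 and Gadd45b were 0.10 and 0.071.

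The other 2 arrest genes were lower in all or nearly all Sal_CP libraries. Ckap2, a spindle protein of dividing cells, had 0.750, 0.295 and 0.669 FPKM in Sal_CP and 1.26, 1.73 and 1.33 FPKM in CP. The groups did not overlap, and the mean was 0.571 ± 0.243 FPKM in Sal_CP and 1.44 ± 0.25 FPKM in CP, which is 0.396 times as high. Ckap2 had the smallest p of all members, with a log2 change of -0.64 (SE 0.23, limma unadjusted p 0.015, adjusted p 0.421) and -1.26 on the log2(FPKM + 0.1) scale, while its exact permutation p was 0.1. At the depth above and its longest transcript, these values stand for at most 42.8, 12.6 and 28.6 fragments in Sal_CP and 55.4, 78.7 and 63.5 in CP. Plk3, a polo-like kinase that phosphorylates p53 after damage, had 3.03, 1.68 and 1.07 FPKM in Sal_CP and 4.27, 4.24 and 3.01 FPKM in CP. Sal_CP replicate 1 reached the lowest CP library and the other 2 lay below. The log2 change of Plk3 was -0.77 (SE 0.28, limma unadjusted p 0.019, adjusted p 0.439), the most negative of the members on this scale. Over the 7 arrest genes the median change was -0.34, with 0 called.

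The windows of Cdkn1a, Ckap2 and Plk2 are printed because each holds a motif searched for. That of Cdkn1a (chr17:29090729-29091028, plus strand) belongs to the upstream of its listed starts and, like that of Ckap2 (chr8:22185770-22186069, minus strand), has the p53-like run in capitals. In that of Plk2 (chr13:110394794-110395093, plus strand) capitals mark TGACGTCA, the cAMP response element, whose first base lies 62 bases before the start. A further motif searched for on either strand, TTTGAA, is not marked. It was found in the windows of 5 of 25 members (Aen, Ckap2, Ercc5, Fas and Fdxr) and of 20.2% of all genes.
Cdkn1a: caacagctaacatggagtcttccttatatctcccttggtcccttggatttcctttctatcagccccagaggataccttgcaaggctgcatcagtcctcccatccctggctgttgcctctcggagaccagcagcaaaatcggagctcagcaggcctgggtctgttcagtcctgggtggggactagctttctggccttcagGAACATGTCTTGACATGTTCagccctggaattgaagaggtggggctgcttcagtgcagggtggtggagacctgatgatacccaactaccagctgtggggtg
Ckap2: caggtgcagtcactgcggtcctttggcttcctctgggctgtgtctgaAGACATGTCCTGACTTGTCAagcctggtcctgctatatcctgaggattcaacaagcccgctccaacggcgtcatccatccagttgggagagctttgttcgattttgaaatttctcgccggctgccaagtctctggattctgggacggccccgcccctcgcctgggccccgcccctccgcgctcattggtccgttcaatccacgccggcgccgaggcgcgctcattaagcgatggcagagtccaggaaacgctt
Plk2: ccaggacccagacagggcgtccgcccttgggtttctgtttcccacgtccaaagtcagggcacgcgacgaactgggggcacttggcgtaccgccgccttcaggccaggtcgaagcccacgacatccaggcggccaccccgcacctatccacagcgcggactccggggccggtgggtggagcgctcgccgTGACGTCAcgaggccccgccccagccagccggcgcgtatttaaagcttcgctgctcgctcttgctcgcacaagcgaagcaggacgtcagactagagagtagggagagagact
TGACGTCA, which reads the same on both strands, was found in the windows of 2 of 25 members, Plk2 and Btg2, and of 2.03% of all genes.

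**Figure D2:**
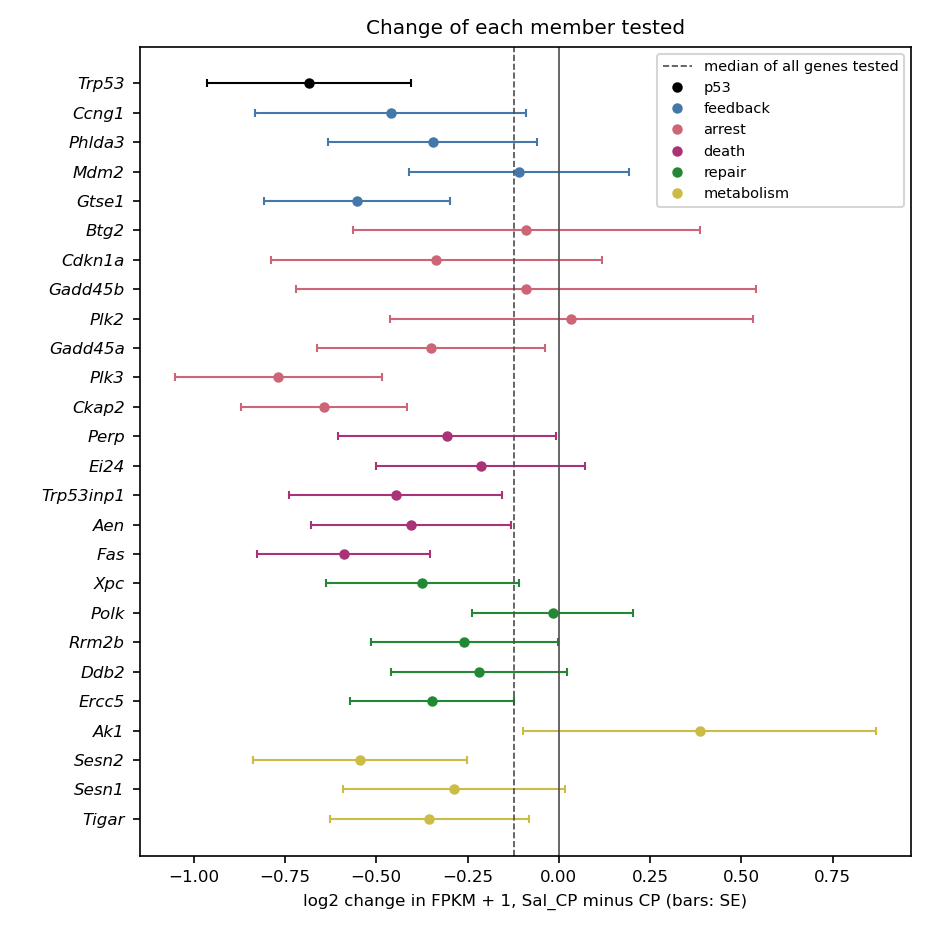
Change of the 26 members tested, as Sal_CP minus CP on the log2(FPKM + 1) scale with bars of 1 SE, coloured by role; the dashed line is the median of all genes tested (-0.12). Plk3, Trp53, Ckap2 and Fas lie farthest below 0, and Ak1 and Plk2 are the members above 0.

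Of the 9 death genes, 3 did not overlap between the groups (Fas, Tnfrsf10b and Eda2r), compared with 6.93% of genes above 0 in a library. Fas was tested and not called, while Tnfrsf10b and Eda2r were under the filter. Fas, the receptor of the Fas ligand, had 2.33, 1.96 and 1.69 FPKM in Sal_CP and 4.30, 3.00 and 3.26 FPKM in CP. All Sal_CP libraries lay below all CP libraries, with means of 1.99 ± 0.33 FPKM in Sal_CP and 3.52 ± 0.69 FPKM in CP. The log2 change of Fas was -0.59 (SE 0.24, limma unadjusted p 0.029, adjusted p 0.444), and its sign held at each of the 16 settings that kept it, from -0.78 to -0.45. Tnfrsf10b, the mouse TRAIL receptor, had 0.260, 0.244 and 0.111 FPKM in Sal_CP and 0.561, 0.554 and 0.494 FPKM in CP, without overlap, a mean 0.382 times as high in Sal_CP. These levels were under the filter and stand for at most 18.2, 12.8 and 5.8 fragments in Sal_CP and 30.2, 31.0 and 28.8 in CP. With no filter limma gave Tnfrsf10b a log2 change of -0.35 (SE 0.11) and an adjusted p of 0.682, and the exact permutation p was 0.1. Eda2r, a receptor of ectodysplasin, had 0.519, 0.291 and 0.493 FPKM in Sal_CP and 0.533, 0.525 and 0.579 FPKM in CP, where Sal_CP replicate 1 missed the lowest CP library by little. Pidd1, the scaffold of the PIDDosome, had 0.389, 0.259 and 0.233 FPKM in Sal_CP and 0.360, 0.809 and 0.883 FPKM in CP, with overlap through CP replicate 1.

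Of the remaining death genes, 4 passed the filter and 1 did not. Perp, a desmosomal membrane protein, had 14.4, 10.7 and 7.35 FPKM in Sal_CP and 12.8, 13.2 and 13.6 FPKM in CP. Ei24, an endoplasmic reticulum protein, had 9.98, 6.87 and 5.10 FPKM in Sal_CP and 8.19, 7.99 and 8.95 FPKM in CP. For Trp53inp1, a nuclear cofactor of p53, the values were 6.33, 3.06 and 2.88 FPKM in Sal_CP and 6.04, 5.67 and 5.22 FPKM in CP, and for the nuclease Aen 4.02, 2.36 and 1.63 FPKM in Sal_CP and 3.42, 3.75 and 3.92 FPKM in CP. In all 4 Sal_CP replicate 1 was the highest library, and replicates 2 and 3 were below every CP library. Apaf1, the core of the apoptosome, did not reach the filter, with 1.44, 0.802 and 0.337 FPKM in Sal_CP and 1.08, 1.21 and 0.688 FPKM in CP, with overlap. Of the 5 death genes tested 0 were called, all 5 had a change below 0, and the median was -0.40.

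Repair genes were low. Xpc and Ddb2, which find damaged bases at the start of nucleotide excision repair, had 2.89, 1.34 and 1.49 FPKM (Xpc) and 1.58, 0.973 and 0.641 FPKM (Ddb2) in Sal_CP, against 3.20, 2.14 and 2.76 FPKM and 1.44, 1.13 and 1.54 FPKM in CP. Ercc5, the nuclease that cuts 3′ of the lesion, had 0.929, 0.621 and 1.26 FPKM in Sal_CP and 1.56, 1.42 and 1.34 FPKM in CP. Its groups did not overlap, and here Sal_CP replicate 3, not replicate 1, was the highest of its group (log2 change -0.35, SE 0.22, limma adjusted p 0.516). Polk, a polymerase that copies past damaged bases, had the change nearest to 0 of the members tested, at 1.54, 1.65 and 1.35 FPKM in Sal_CP and 1.58, 1.26 and 1.80 FPKM in CP (log2 change -0.017, SE 0.22, and 0.11 after median of ratios rescaling). Rrm2b, the p53-inducible subunit of ribonucleotide reductase, had 2.16, 0.928 and 0.855 FPKM in Sal_CP and 1.68, 1.72 and 1.65 FPKM in CP. The pseudogene Gm3362, at a mean of 73.9 FPKM, overlaps Rrm2b on the same strand, which makes the value of Rrm2b uncertain. Acp2 (mean 3.33 FPKM) overlaps Ddb2 on the opposite strand, and without a statement that counting used strand their reads cannot be told apart. Of the 5 repair genes 0 were called, and their median change was -0.26.

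Metabolic targets held the most abundant member and the largest change above 0. Ak1, an adenylate kinase that is also found in sperm tails, had 50.3, 53.2 and 140.2 FPKM in Sal_CP and 43.0, 104.7 and 36.9 FPKM in CP, with a log2 change of 0.39 (SE 0.48, limma adjusted p 0.675). Its libraries, ordered from high to low, were Sal_CP replicate 3, CP replicate 2, Sal_CP replicates 2 and 1, and CP replicates 1 and 3, which is also the order of the mean log2 level of the 18 spermatid markers (9.76, 9.17, 9.14, 8.93, 8.65 and 8.53). Without Sal_CP replicate 3 the change of Ak1 was -0.088. Sesn2, a sestrin that restrains the growth kinase mTORC1, had 6.24, 2.96 and 2.82 FPKM in Sal_CP and 6.07, 6.11 and 5.76 FPKM in CP. Here the CP libraries were close together (5.98 ± 0.19 FPKM) and only Sal_CP replicate 1 reached them (log2 change -0.54, SE 0.29, limma adjusted p 0.480). Its paralog Sesn1 had 2.97, 0.745 and 1.47 FPKM in Sal_CP and 2.81, 1.87 and 1.84 FPKM in CP. Tigar, a phosphatase that turns glucose use toward the pentose phosphate pathway, had 1.80, 0.684 and 0.407 FPKM in Sal_CP and 1.27, 1.55 and 1.40 FPKM in CP. Fdxr, the mitochondrial ferredoxin reductase, also missed the filter, with 1.06, 0.348 and 0.845 FPKM in Sal_CP and 1.47, 0.687 and 1.07 FPKM in CP, with overlap. Of the 4 metabolic genes tested 0 were called, and their median change was -0.32.

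Other genes of the pathway, in lists drawn up from general knowledge but with earlier results of these data known, gave 0 calls as well. Of 36 further p53 targets, 29 were tested, 24 had a log2 change below 0 (60.5% of all genes), and the median was -0.41. At an unadjusted p below 0.05 limma found 8 lower (6.77% of all genes) and 0 higher (3.96%). The 4 of smallest p were Ccnd1 (cyclin D1, log2 change -1.29, adjusted p 0.333), Sfn (the arrest protein 14-3-3 sigma, -0.89, adjusted p 0.378), Rprm (-0.84, adjusted p 0.433) and the thiamine transporter Slc19a2 (-0.63, adjusted p 0.444). Genes that control p53 were balanced, with 9 of 17 tested below 0 (60.5% of all genes) and a median of -0.016. At a limma unadjusted p below 0.05 there were 0, compared with 6.77% of all genes lower and 3.96% higher. Among them the checkpoint kinase Chek2 had -0.47 (adjusted p 0.464 in limma) and the phosphatase Ppm1d, which p53 induces and which switches it off, 0.57 (adjusted p 0.474), with all 3 Sal_CP libraries (13.8, 15.9 and 16.5 FPKM) above all CP libraries (6.83, 11.9 and 12.2 FPKM). The clamp loader Rad17 had 0.30 (adjusted p 0.540) and the kinase Hipk2 0.31 (adjusted p 0.568). Ppm1d and Rad17 were the 2 of 17 that did not overlap in the higher direction, compared with 7.21% of all genes. Chek2 was the 1 in the lower direction, compared with 10%.

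The cell-cycle genes that p53 is known to shut down went both ways: 11 of 20 tested were below 0 (60.5% of all genes), and the median was -0.039. Rrm2, the S-phase counterpart of Rrm2b, had a log2 change of -0.65 (limma adjusted p 0.421). It was the 1 gene of the 20 that did not overlap in the lower direction, compared with 10% of all genes. The mitotic kinases Aurka (0.73, limma adjusted p 0.444), Plk1 (0.74, adjusted p 0.464) and Bub1 (0.44, adjusted p 0.474) were higher in all 3 Sal_CP libraries than in any CP library. So was Ccnb1 (0.35), which makes 4 of the 20, compared with 7.21% of all genes. At a limma unadjusted p below 0.05 there was 1 lower (6.77% of all genes) and 1 higher (3.96%). Of 26 further genes of nucleotide excision repair, 21 were tested, 18 lay below 0 (60.5% of all genes), the median was -0.20, and limma found 1 lower at an unadjusted p below 0.05 (6.77% of all genes). Those of smallest p were Gtf2h3 (-0.50, adjusted p 0.464), Cetn2 (-0.54, adjusted p 0.470), Ccnh (-0.40, adjusted p 0.481) and Rpa3 (-0.55, adjusted p 0.482).

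**Figure D3:**
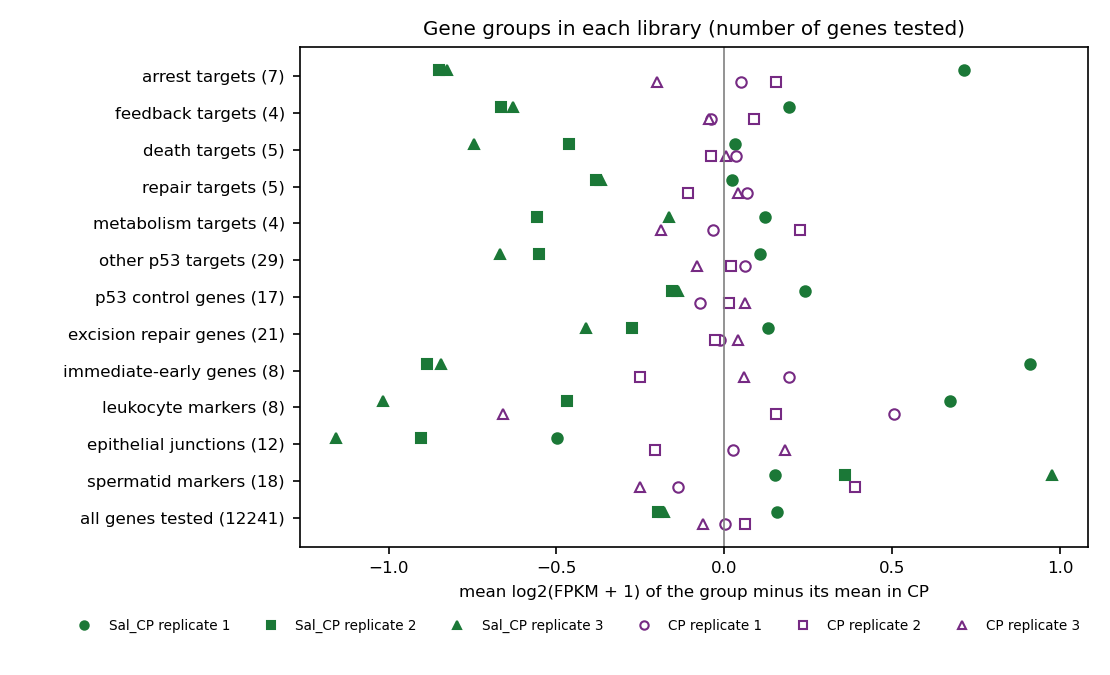
Mean log2(FPKM + 1) of each gene group in each library, as the difference from its mean in CP; filled green symbols are Sal_CP and open purple symbols CP, and numbers are genes tested. Sal_CP replicate 1 lies to the right of every CP library, and Sal_CP replicates 2 and 3 to the left, for all genes tested and for arrest, feedback and other p53 targets, p53 control genes and excision repair genes. The immediate-early genes, which were chosen after their values were seen, have the same pattern, while epithelial junction genes have all 3 Sal_CP libraries to the left.

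Other gene groups moved with these libraries. The mean log2(FPKM + 1) of the 7 arrest genes reached 3.95, 2.38 and 2.41 in Sal_CP, against 3.28, 3.39 and 3.03 in CP. The mean of all 12241 genes tested had the same pattern with a smaller range, at 2.73, 2.37 and 2.39 in Sal_CP, against 2.57, 2.63 and 2.51 in CP. That of 8 immediate-early genes (Fos, Fosb, Egr1, Jun, Junb, Ier2, Ier3 and Atf3), chosen after their values were seen, stood at 6.14, 4.34 and 4.38 in Sal_CP, against 5.42, 4.97 and 5.28 in CP. Fos had 175.5, 52.7 and 57.3 FPKM in Sal_CP and 115.5, 85.9 and 97.8 FPKM in CP, with Sal_CP replicate 1 highest and Sal_CP replicates 2 and 3 lowest, as for Btg2 and Gadd45b. Leukocyte markers, of which 8 of 11 were tested, summed to 773.7, 220.8 and 126.2 FPKM in Sal_CP and 442.4, 312.6 and 163.5 FPKM in CP. Most of each sum was Lyz2 (562, 168 and 89.8 FPKM in Sal_CP and 333, 222 and 115 FPKM in CP). Sal_CP replicate 1 was the highest library for 5 of the 8. Among these, the macrophage marker Cd68 reached 133 FPKM there, against 13.6 to 36.1 FPKM in the other 5 libraries. By contrast, S100a8 and S100a9 were lower in all Sal_CP libraries than in any CP library (log2 changes -0.61 and -1.81). All 12 epithelial junction markers were tested. Their mean log2 level came to 4.08, 3.67 and 3.42 in Sal_CP, against 4.60, 4.37 and 4.76 in CP, without overlap. Their summed FPKM did overlap, at 611, 698 and 553 in Sal_CP and 818, 613 and 680 in CP. Cldn3, the most abundant of them (mean 407 FPKM), had a log2 change of 0.49, while the change was below 0 in 11 of the 12. Of the epididymal list, 7 of 15 were tested, Lcn9 was listed at 0 in all libraries, and limma called Akr1b7, Defb42 and Clu lower (adjusted p 0.015, 0.032 and 0.032). The Sertoli list, mostly Clu, summed to 81.3 to 143 FPKM in Sal_CP and 451 to 777 FPKM in CP. Clu is on the epididymal list as well, so the 2 lists do not show separate shifts. Sox9, Aard and Cldn11, the other Sertoli markers tested, overlapped between the groups. The stroma list summed to 31.9 to 64.4 FPKM in Sal_CP and 62.5 to 117 FPKM in CP. For the Leydig list, with Hsd17b3 at 0, the sums were 1.27 to 3.05 FPKM in Sal_CP and 3.76 to 5.42 FPKM in CP. Spermatogonium markers summed to 21.2 to 24.4 FPKM in Sal_CP and 14.8 to 24.9 FPKM in CP. Mitochondrially encoded genes took 29.0 to 38.1% of all FPKM in Sal_CP and 36.6 to 50.4% in CP. The part of these shifts, and of the greater depth of Sal_CP replicate 1, in the values of p53 and its targets was not tested.

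In the authors' deposited table none of the members was marked significant. The authors' deposited table gave 5 of the 32 a p-value below 0.05, all lower in Sal_CP, where 3.85% of all genes above 0 in a library were so: Ckap2 (p-value 0.00901), Tnfrsf10b (0.0108), Plk3 (0.020), Trp53 (0.0307) and Pidd1 (0.0353). The smallest q-value in the authors' deposited table was 0.286, for Ckap2.

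**Figure D4:**
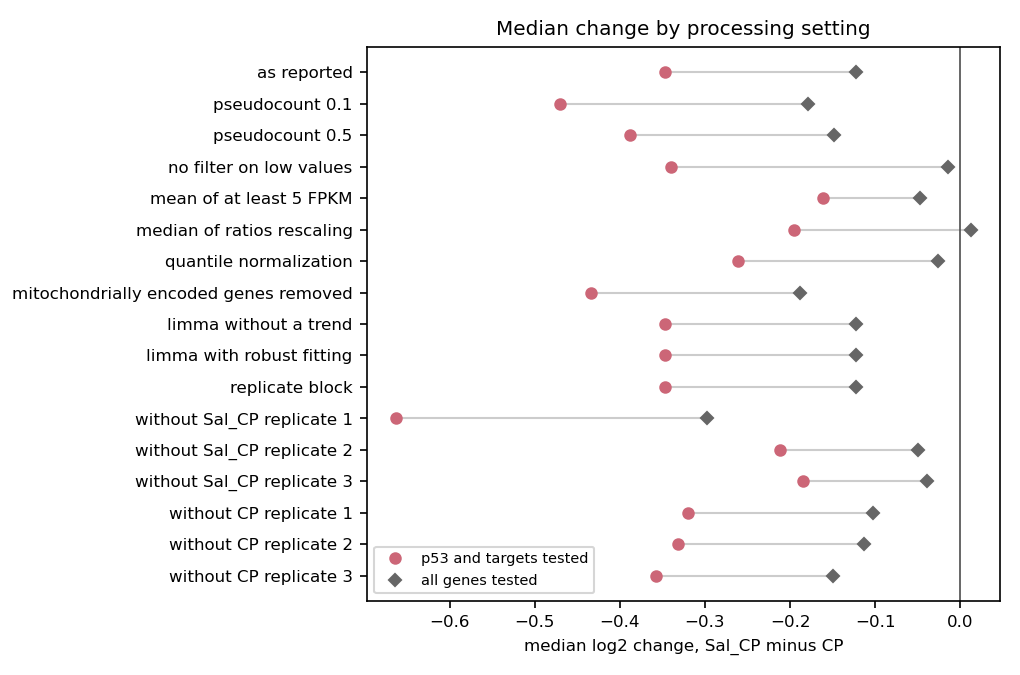
Median log2 change of the members tested (circles) and of all genes tested (diamonds) under each processing setting, as Sal_CP minus CP. The members' median lies to the left of that of all genes at every setting, from -0.66 without Sal_CP replicate 1 to -0.16 with a minimum mean of 5 FPKM.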

How the data were processed

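RNA of 6 libraries was sequenced as paired reads of 150 bases from a strand-keeping preparation, per the labels' protocols. The authors deposited FPKM per gene; per the submitters' processing notes GRCm38 was the build, with aligner, quantifier and use of strand not given in the sources used here. A deposited fold column, the ratio of Sal_CP to CP, is the ratio of group mean FPKM, and the deposited p-value and q-value come from a test that is not given. Libraries were grouped by title. The members, their roles and all lists were chosen with earlier results of these data known. Genes averaging 1 FPKM or more entered as log2(FPKM + 1). The comparison used limma (3.58.1, under R 4.3.3) with its trend option, 4 residual and 7.76 prior degrees of freedom, and Benjamini-Hochberg adjustment over all 12241 genes at a threshold of 0.05. Single values had a two-sided exact permutation test over 20 assignments. Every member is described; of other lists the called genes or the 4 of smallest p are named, and of marker lists the extremes. Older symbols of 2 list genes were matched to current ones. Coordinates are from GENCODE M21, whose IDs matched all 32 members, and promoters from RefSeq (GRCm38.p6). FPKM is a share within each library, so a large transcript class lowers all other values. The fit was tested on simulated data in which the planted changes were larger than that of any member. That test therefore does not show whether changes of the members' size would be called. Alternatives were pseudocounts, filters, scalings, limma options, a replicate block and each library left out. Depth was read from steps of low FPKM in genes of 1 transcript longer than 400 bases, so fragment numbers are estimates, and intervals that need counts are not given. Figures used matplotlib 3.10.9.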

Additional observations from a re-analysis of the deposited data

How the results depend on the processing

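No member passed limma's adjusted threshold at any of the 17 settings, where the smallest adjusted p was 0.066 (without Sal_CP replicate 1). The members' median change was -0.66 to -0.16 over these settings, and 24 of the 32 members kept their sign at all settings run for them. The count of all genes called, 9 as reported, was 0 with no filter, 0 after median of ratios rescaling, 5 after quantile normalization, 280 with the replicate block and 0 to 13 with a library left out. Deviations of same-numbered libraries from their group means correlated at r = 0.20, -0.12 and -0.064 for replicates 1 to 3. Differently numbered libraries ranged from -0.21 (Sal_CP replicate 3 with CP replicate 1) to 0.30 (Sal_CP replicate 3 with CP replicate 2). The numbers are therefore not taken as pairs, and with the replicate block 0 members were called. With a pseudocount of 0.1 the median of repair targets was -0.45. With a minimum mean of 5 FPKM the metabolic median was 0.39, since Ak1 was its only gene left, and with a library left out it was -0.62 to -0.14; the median of all genes was then -0.30 to -0.039. Signs turned after median of ratios rescaling for Gadd45b (0.071), Mdm2 (0.051), Btg2 (0.10) and Polk (0.11), after quantile normalization for Gadd45b (0.016) and Polk (0.12), and without mitochondrially encoded genes for Plk2 (-0.033). With a library left out the changes ranged from -1.07 to 0.45 for Gadd45b, -0.42 to 0.048 for Mdm2, -0.73 to 0.29 for Btg2, -0.67 to 0.46 for Plk2, -0.0996 to 0.054 for Polk, -0.088 to 0.84 for Ak1, -0.24 to 0.016 for Zmat3 and -0.35 to 0.083 for Apaf1. The cause of these shifts was not tested. Depth limits the lowest members: Tnfrsf10b stood for at most 5.8 to 18.2 fragments in Sal_CP and 28.8 to 31.0 in CP.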
